A study of Homo sapiens with 32 samples.

Results

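The fibroblast growth factor (FGF) system of 2 human cell lines was examined in 10 genes. They are the ligands FGF2, FGF9, FGF18, FGF19 and FGF20, the ligand-binding protein FGFBP1 and the receptors FGFR1, FGFR2, FGFR3 and FGFR4. They were taken by symbol from every RNA count file, and all 10 were among the 57820 genes listed for the line HCT116. The files of the line HEK293 listed 11887 genes, 6 of them members (FGF2, FGF9 and the 4 receptors). FGF18, FGF19, FGF20 and FGFBP1 were not listed there. The set was chosen by gene symbol with earlier results of these data in view, among them the higher level of FGF9 in the HCT116 clone that lacks the element E7. The values of that comparison are therefore a description, with no p-values for the members.

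FGF ligands are secreted proteins that bind receptor tyrosine kinases together with heparan sulfate or, for endocrine ligands, with a klotho co-receptor. A bound receptor phosphorylates adaptor proteins and switches on the RAS to ERK cascade, which in turn raises transcription of its own inhibitors, among them sprouty proteins and dual-specificity phosphatases. FGF9 is a paracrine ligand that in the developing intestine and lung signals from epithelium to mesenchyme, FGF19 is a hormone that the ileum releases in response to bile acids, and FGF2 is a ligand with no classical secretion signal. FGFR4 is the main receptor of FGF19 in the liver.

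HCT116 is a human colorectal cancer line and HEK293 a human embryonic kidney line. Each library was made from a clone that grew out of a single cell sorted for high GFP after transfection with Cas9-GFP. The guide RNAs given with it targeted the distal element E7, 18qNE or 18qE in the deletion clones, and in the control clones the guide plasmid was empty. In HCT116 there were 3 libraries of 1 E7 clone (RNA extracted on days A, B and C), 3 libraries of 3 18qNE clones (days A, B and A), and 12 libraries of 4 control clones (each on days A, B and C). On day D there were 2 18qE clones and the control clones 1 and 2, and in HEK293, on day E, 2 E7 libraries and 2 control libraries. Both HEK293 E7 libraries carry the same clone label, so they may be 1 clone. E7 lies in the MYC region of chromosome 8, and 18qNE and 18qE lie near SMAD7 on chromosome 18. With 1 E7 clone in HCT116, the deletion and the history of that clone cannot be told apart.

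Libraries held between 9871667 and 14862268 gene counts on days A to C, between 22972412 and 24887785 on day D, and between 26491576 and 34790193 in HEK293. Levels are given as CPM, the depth-scaled count over the gene counts of a library. Log2 changes come from edgeR's quasi-likelihood test, with the clone as the replicate in the deletion and line comparisons. Epithelial markers summed to 4626 to 6098 CPM in the E7 libraries of HCT116 and 4252 to 6902 CPM in the control libraries of days A to C. The keratin KRT8 made up the largest part of these sums, with means of 2769 and 2598 CPM. CDH1, the adhesion protein of epithelia, was 0.73 lower on the log2 scale in the E7 clone (SE 0.15, edgeR adjusted p = 0.0185). The keratin KRT19 was 0.36 higher (SE 0.10, edgeR adjusted p = 0.0457). These were the 2 of 10 tested epithelial markers that passed, and the median log2 change of the 10 was -0.30. Fibroblast markers summed to 12.3 to 22.6 CPM in the E7 libraries and 17.8 to 30.3 CPM in the control libraries, with COL1A2, DCN and LUM at 0 in both. Leukocyte markers summed to 1.22 to 2.76 CPM and 0.675 to 2.35 CPM, and 1 of 2 tested passed, the lysozyme gene LYZ, at 1.93 (SE 0.30, edgeR adjusted p = 0.00621). Of 7 markers of HEK293, 4 were tested, and DPYSL3 (-3.78, SE 0.14, edgeR adjusted p = 1.56e-05) and GATA3 (-2.59, SE 0.41, edgeR adjusted p = 0.00714) were lower in the E7 clone. The HEK293 markers summed to 13.2 to 19.98 CPM in the E7 libraries and 79.3 to 108 CPM in the control libraries, with CRABP1 and NEFM at 0 in both. DPYSL3 made up the largest part of the control sum. Its means were 5.49 CPM in the E7 libraries and 77.2 CPM in these controls, beside 119 CPM in the HEK293 controls. It is thus not particular to HEK293. Over all genes tested in this comparison 13.9% passed. The shares were 20% of 10 epithelial, 0% of 2 fibroblast, 50% of 2 leukocyte and 50% of 4 HEK293 markers, all short lists. The part of these differences in the results on FGF genes was not tested.

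**Figure D1:**
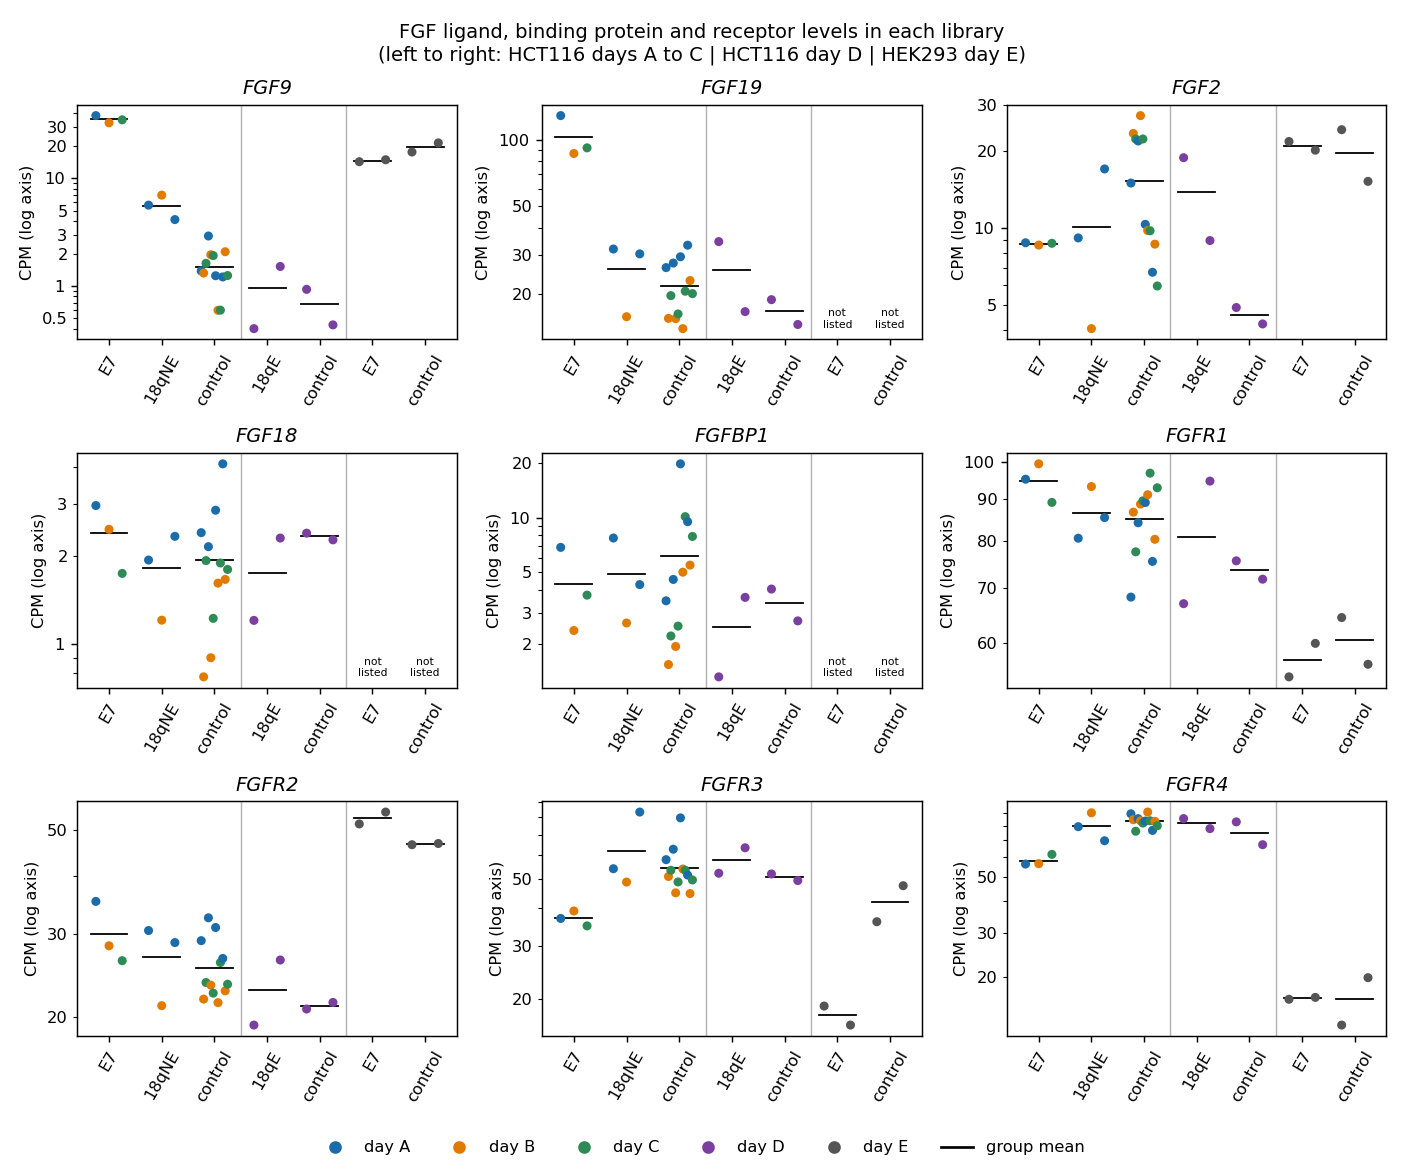
CPM of 9 members in each library, on log axes, with days as colours and group means as lines. The 3 E7 libraries of HCT116 sit at 32.7 to 38.1 CPM for FGF9, above the 3 18qNE libraries (4.13 to 6.96) and the 12 control libraries (0.594 to 2.91).

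FGF9 (ENSG00000102678.6, chromosome 13) had the widest spread of the ligands across groups. In the E7 clone of HCT116 it had 38.1, 32.7 and 34.8 CPM on days A, B and C, against 0.594, 1.35 and 2.91 CPM as the lowest, median and highest of the 12 control libraries. The E7 and control libraries did not overlap. In such bulk samples, more expressing cells and more RNA per cell cannot be told apart. The log2 change was 4.54 (SE 0.30, 95% interval 3.85 to 5.24, 1 E7 clone against 4 control clones), a fold of 23.3. Day by day, log2(CPM + 0.5) of the E7 library lay 4.21, 4.14 and 4.32 above the mean of the 4 control libraries.

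FGF9 was also above every control library of days A to C in the 18qNE clones, which carry a deletion at another site and are compared with the same control clones. It had 5.62, 6.96 and 4.13 CPM in 18qNE clones 1, 2 and 3. The log2 change from the control clones was 1.82 (SE 0.31, 95% interval 1.11 to 2.52), which did not pass the threshold over all genes (edgeR adjusted p = 0.605). In that comparison edgeR called 0 of 15524 genes (percent called 0), with 505 at an unadjusted p under 0.05, and DESeq2 called 13. FGF9 was among those 13 (DESeq2 adjusted p = 0.000491) and passed edgeR without the count filter (adjusted p = 0.00266). With the 18qNE clones as the reference, the E7 clone was at 2.66 (SE 0.33).

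On day D FGF9 was low in both groups, with 0.402 and 1.52 CPM in the 18qE clones and 0.929 and 0.435 CPM in the control clones. The groups overlapped, and the log2 change was 0.49 (SE 0.65, edgeR adjusted p = 0.99993).

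HEK293 had FGF9 without any deletion at 17.5 and 21.3 CPM. Its E7 libraries had 14.2 and 14.8 CPM, both below the control libraries. The log2 change of E7 in HEK293 was -0.49 (SE 0.22, 95% interval -1.05 to 0.07), short of the threshold (edgeR adjusted p = 0.447). The effect of E7 in HEK293 minus that in HCT116 was -5.01 (SE 0.47, 95% interval -6.09 to -3.94). This difference shares the E7 libraries of HCT116 with the comparison known beforehand, and it is given as a description.

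FGF19 (ENSG00000162344.3, chromosome 11) had 129, 86.7 and 92.0 CPM in the E7 clone on days A, B and C. The control libraries ran from 13.9 to 33.3 CPM, with day means of 29.2, 17.0 and 19.1 CPM. In the E7 clone and in the control clones alike, day A was the highest. The log2 change in the E7 clone was 2.26 (SE 0.11, 95% interval 2.00 to 2.51), a fold of 4.79, and within days it was 2.13, 2.35 and 2.24 on log2(CPM + 0.5). Against the 18qNE clones it was 2.06 (SE 0.34).

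The 18qNE clones had 32.0, 15.8 and 30.4 CPM of FGF19. The low value is that of clone 2, the one extracted on day B, when the control libraries had 13.9 to 23.0 CPM. The other 2 were extracted on day A, when the controls had 26.3 to 33.3 CPM. The log2 change was 0.18 (SE 0.22, edgeR adjusted p = 0.99998). On day D the 18qE clones had 34.6 and 16.6 CPM, against 18.8 and 14.5 CPM in the control clones, with a log2 change of 0.67 (SE 0.35, edgeR adjusted p = 0.99993). It was 1.13 without 18qE clone 2 (edgeR adjusted p = 0.00532) and -0.017 without 18qE clone 1 (edgeR adjusted p = 0.998), each with 1 clone against 2, so the direction rested on clone 1.

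FGF2 (ENSG00000138685.8, chromosome 4) had 8.75, 8.57 and 8.70 CPM in the E7 clone, within the control range of 5.93 to 27.4 CPM. The interval of its log2 change, -2.20 to 0.61, was wide, and the control clones themselves differed in FGF2. It had 9.14, 4.05 and 17.0 CPM in the 18qNE clones, with a log2 change of -0.60 (SE 0.49, edgeR adjusted p = 0.99998). In the 18qE clones FGF2 had 18.8 and 8.92 CPM, against 4.89 and 4.22 CPM in control clones 1 and 2 of day D. Both 18qE clones were higher than both controls, and the log2 change was 1.65 (SE 0.39, 95% interval 0.75 to 2.56).

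That change did not pass in edgeR (adjusted p = 0.99993), which called 0 of 15261 genes in this comparison (percent called 0) with 391 at an unadjusted p under 0.05. DESeq2 called 19 genes, FGF2 among them (adjusted p = 0.0193), and edgeR gave 2.12 (adjusted p = 0.000192) without 18qE clone 2 but 0.96 (adjusted p = 0.326) without 18qE clone 1. Each of these fits sets 1 clone against 2 and assumes that it varies like the controls. The same control clones had far more FGF2 on days A, B and C, with 15.0, 23.3 and 22.2 CPM in clone 1 and 21.8, 27.4 and 22.2 CPM in clone 2. The 18qE levels lie among those of the control clones of days A to C. NUDT6, which overlaps FGF2 on the opposite strand, had 3.46 and 3.90 CPM in the 18qE clones and 4.93 and 3.53 CPM in the day D controls, with the groups overlapping. As no source used here states the strand setting of the counting, reads from the shared stretch cannot be assigned to one of them. In HEK293 FGF2 had 21.7 and 20.1 CPM in the E7 libraries and 24.1 and 15.2 CPM in the control libraries, with a log2 change of 0.03 (SE 0.25, edgeR adjusted p = 0.963).

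FGF18 (ENSG00000156427.7, chromosome 5), a paracrine ligand of skeletal and lung development, was low throughout HCT116. It had 2.96, 2.46 and 1.74 CPM in the E7 clone and 0.775 to 4.10 CPM in the control libraries, and the log2 change was 0.35 (SE 0.30). Its log2 changes were -0.16 (SE 0.31) in 18qNE and -0.39 (SE 0.38) in 18qE, neither past the threshold (edgeR adjusted p = 0.99998 and 0.99993). FGF20 (ENSG00000078579.8, chromosome 8), a close relative of FGF9, had 0 counts in the E7 and 18qNE libraries, 4 counts over the 12 control libraries, 1 in the 18qE clones and 1 in the day D controls. A count of 0 allows up to 0.0739 CPM over the 3 E7 libraries together, for counting error only, so no difference was detectable at this depth. Of 17 other FGF ligands, 7 had enough counts to be tested in the E7 comparison and none passed, where 13.9% of all genes were called. With so few genes at low counts, this says little about these ligands. The highest of them in HCT116 were FGF17, at 1.13 to 1.48 CPM in E7 and 0.298 to 1.96 CPM in the control libraries, and FGF11, at 1.35 to 1.40 CPM and 0.340 to 1.94 CPM.

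FGFBP1 (ENSG00000137440.3, chromosome 4), a secreted carrier that frees FGF2 from the matrix, had 6.86, 2.39 and 3.74 CPM in the E7 clone and 1.55 to 19.8 CPM in the control libraries. The groups overlapped, and the interval of the log2 change was -2.34 to 1.34. It had 7.73, 2.63 and 4.28 CPM in the 18qNE clones, and 1.33 and 3.64 CPM in the 18qE clones against 4.04 and 2.70 CPM in the day D controls. Its log2 change was -0.42 (SE 0.56) in 18qNE and -0.43 (SE 0.47) in 18qE, neither past the threshold (edgeR adjusted p = 0.99998 and 0.99993).

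Among the receptors the E7 clone of HCT116 differed most in FGFR4 and FGFR3. FGFR4 (ENSG00000160867.10, chromosome 5) had 56.3, 56.5 and 61.5 CPM in the E7 clone, against 76.1, 83.6 and 90.7 CPM as the lowest, median and highest control libraries. The groups did not overlap, and the log2 change was -0.51 (SE 0.09, 95% interval -0.72 to -0.31). FGFR3 (ENSG00000068078.13, chromosome 4) had 36.9, 39.1 and 34.9 CPM in the E7 clone, also below every control library (44.7 to 79.7 CPM), with a log2 change of -0.55 (SE 0.16, 95% interval -0.91 to -0.18). FGFR2 (ENSG00000066468.16, chromosome 10) had 35.3, 28.4 and 26.4 CPM, each above the 4 control libraries of its own day, and a log2 change of 0.26 (SE 0.10). FGFR1 (ENSG00000077782.15, chromosome 8) had 95.3, 99.5 and 89.2 CPM, against control libraries of 68.3 to 96.9 CPM, and a log2 change of 0.17 (SE 0.11). It lay above the 4 control libraries of its own day on days A and B and within them on day C.

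As a description, 3 of the 9 members with enough counts lay past the adjusted p of 0.05 in the E7 comparison, FGF9 and FGF19 higher and FGFR4 lower, where 13.9% of the 17664 genes tested were called (7.58% higher and 6.32% lower). The count is no evidence about the set, which was chosen with this comparison known. The median log2 change of the 9 was 0.17, against -0.01 over all genes. The share over all genes depends on single control clones, since 1477 genes were called without control clone 1 and 1499 without control clone 2, in place of 2456. With the 18qNE clones as the reference 79 genes were called, and FGFR4 was at -0.50 (SE 0.25).

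**Figure D2:**
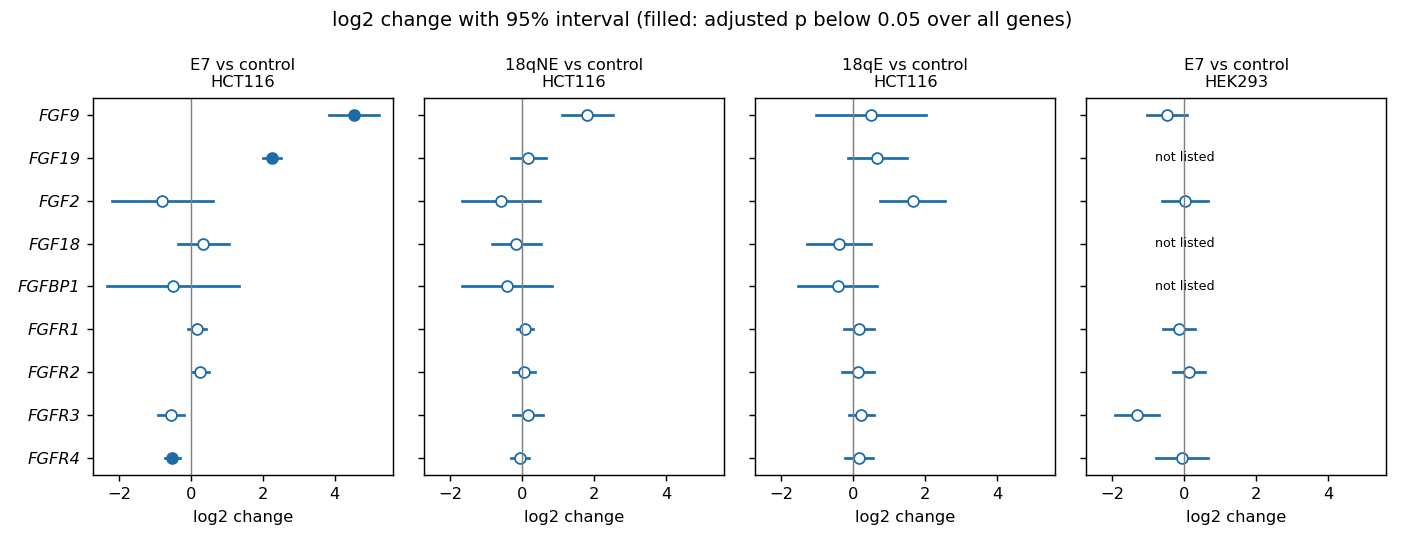
Log2 change with its 95% interval for 9 members in the 4 deletion comparisons, filled where the adjusted p was under 0.05 over all genes. In the E7 clone of HCT116 FGF9 (4.54), FGF19 (2.26) and FGFR4 (-0.51) are filled, and no point is filled in the other 3 comparisons. The members were chosen with the HCT116 E7 comparison known, so the filling there is a description.

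FGFR3 was the receptor that differed most with E7 in HEK293 as well. It had 18.9 and 16.4 CPM in the E7 libraries and 36.0 and 47.4 CPM in the control libraries, so both E7 libraries were lower. The log2 change was -1.32 (SE 0.24, 95% interval -1.93 to -0.71), with an edgeR adjusted p of 0.211 and a DESeq2 adjusted p of 0.00142. In this comparison edgeR called 3 of 11806 genes (0.0254%), with 1487 at an unadjusted p under 0.05, and DESeq2 called 463. Leaving out 1 library moved the edgeR count to between 74 and 6210 genes. None of the 6 listed members passed in edgeR with all 4 libraries, and the call of FGFR3 turned on which library was left out. Its log2 change was -1.54 and -1.06 without control library 1 or 2 (edgeR adjusted p = 0.000296 and 0.00572), fits whose spread comes from the E7 libraries of the same clone label. It was -1.42 and -1.22 without E7 library 1 or 2 (edgeR adjusted p = 0.549 and 0.769). The change of FGFR3 in HEK293 minus that in HCT116 was -0.75 (SE 0.29, edgeR adjusted p = 0.206).

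The other receptors of HEK293 lay close to their controls. FGFR1 had 54.5 and 59.9 CPM in the E7 libraries and 64.4 and 56.5 CPM in the control libraries, FGFR2 had 51.5 and 54.6 CPM and 46.5 and 46.8 CPM, and FGFR4 had 16.3 and 16.6 CPM and 12.9 and 19.9 CPM. Their log2 changes ran from -0.14 to 0.12, with edgeR adjusted p from 0.725 to 0.919 and intervals that reach from -0.80 to 0.66 for FGFR4. In the 18qNE and 18qE clones the 4 receptors had log2 changes from -0.06 to 0.22, none past the threshold. FGFR3 reached 83.3 CPM in 18qNE clone 3, next to 54.0 and 48.8 CPM in clones 1 and 2, and the highest control library, clone 3 on day A, had 79.7 CPM.

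The genes on which FGF receptors act were followed in 5 lists that hold no member. These lists too were chosen with earlier results of these data known. Their shares and p-values, where the E7 clone of HCT116 enters, are therefore a description and no independent evidence on the pathway. Of 13 tested feedback inhibitors of the pathway, 4 rose in the E7 clone of HCT116 and none fell, a share of 30.8% beside 13.9% of all genes (7.58% higher), with a median log2 change of 0.33 beside -0.01 over all genes. DUSP6, a phosphatase that inactivates ERK, had 401 to 574 CPM in the E7 libraries and 38.8 to 185 CPM in the 12 controls, and rose by 2.61 (SE 0.26, edgeR adjusted p = 0.00106). SPRY4, a sprouty inhibitor of receptor tyrosine kinase signalling, rose by 1.15 (SE 0.18), IL17RD, a membrane inhibitor of FGF receptors, by 1.14 (SE 0.19), and DUSP4, another phosphatase of ERK, by 1.06 (SE 0.19). These 4 genes also differed among the control clones with no deletion, where their highest and lowest clones lay 0.56 to 0.96 apart on the log2 scale. Every E7 library lay above every control library for DUSP6, while for SPRY4, IL17RD and DUSP4 the ranges overlapped.

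Of 12 genes known to follow FGF and ERK activity, 7 rose and 1 fell, a share of 66.7% beside 13.9% of all genes (7.58% higher and 6.32% lower), with a median of 0.53. The immediate early transcription factor EGR1 rose by 1.27 (SE 0.20), IER3, a stress and growth factor response gene, by 1.17 (SE 0.13), the AP-1 subunit FOSL1 by 1.05 (SE 0.10), and MYEOV by 1.03 (SE 0.14). The edgeR adjusted p of these 4 was between 0.000818 and 0.00722. EGR1, IER3 and FOSL1 also differed between extraction days in the control clones. For EGR1 the E7 libraries (61.0 to 108 CPM) overlapped with the controls of days A to C (15.1 to 76.5 CPM). IER3, FOSL1 and MYEOV did not overlap with those controls. Other deletion clones reached 96.9 CPM for EGR1 and 368 CPM for IER3 (18qNE), and 267 CPM for FOSL1 (18qE). The highest E7 libraries had 108, 345 and 248 CPM of these 3 genes.

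Of 12 tested co-receptors and binding proteins, 2 rose and none fell, a share of 16.7% that is near the 13.9% of all genes (median 0.25). SDC4, a heparan sulfate proteoglycan, had 117 to 140 CPM in the E7 libraries and 54.5 to 80.0 CPM in the 12 controls. It rose by 0.96 (SE 0.09, edgeR adjusted p = 0.000940), and FGFRL1, an FGF receptor without a kinase domain, rose by 0.55 (SE 0.15, edgeR adjusted p = 0.0483). Of 19 enzymes of heparan sulfate synthesis (median 0.09), the sulfotransferase NDST3 alone passed (5.26%), at 0.522 to 0.875 CPM in E7 and 0 to 0.415 CPM in the control libraries. Of 24 signal transducers (median 0.18), 4 rose and none fell, again 16.7% beside 13.9% of all genes, among them the adaptors GAB2 (0.88, SE 0.19) and FRS3 (0.71, SE 0.17) and the regulatory subunit PIK3R1 (0.64, SE 0.10).

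No gene of these 5 lists passed in the 18qNE, 18qE or HEK293 E7 comparisons, in which 0%, 0% and 0.0254% of all genes were called. The difference of the E7 effect between the lines passed for 401 of 11849 genes (3.38%), and among the list genes for DUSP6 (-3.81, SE 0.64), the ERK phosphatase DUSP5 (-1.42, SE 0.31), the cyclin CCND1 (-1.55, SE 0.28) and SPSB1 (1.09, SE 0.23), with edgeR adjusted p between 0.0231 and 0.0497. Without 1 library of HEK293 the count over all genes was between 35 and 4701, and without 1 HCT116 control clone between 92 and 182. DUSP6 had 6.35 and 11.0 CPM in the E7 libraries of HEK293 and 11.9 and 26.4 CPM in its control libraries.

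**Figure D3:**
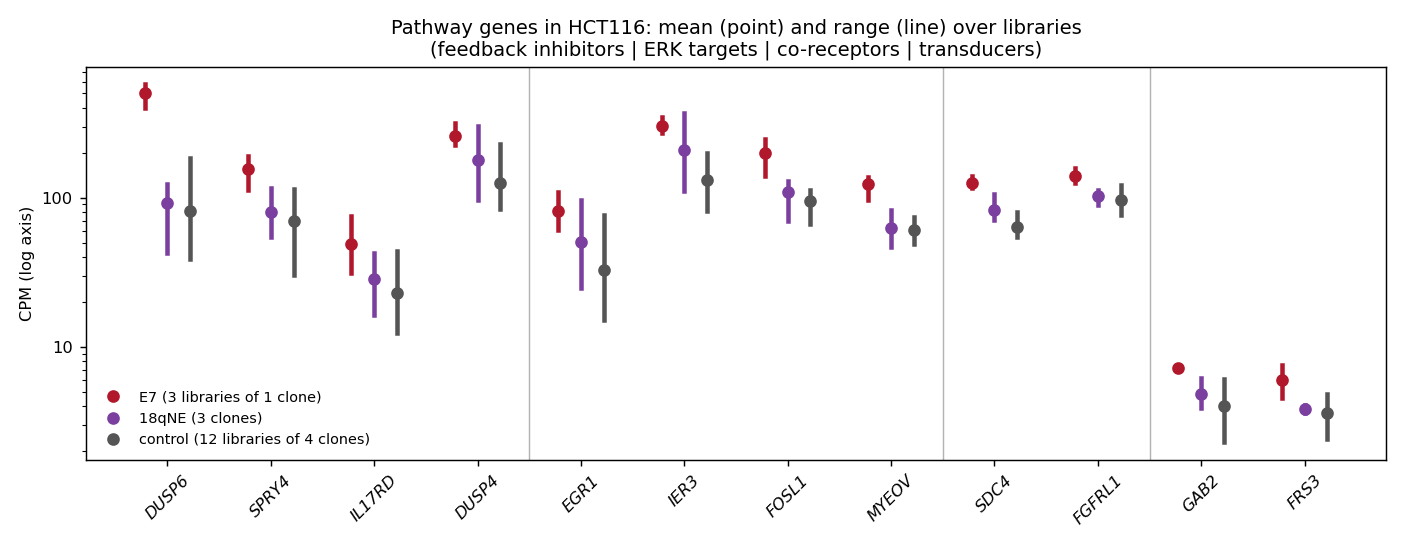
CPM of 12 pathway genes in HCT116 on a log axis, with the mean as a point and the range over libraries as a line. DUSP6 runs from 401 to 574 CPM in the E7 libraries, clear of the 18qNE (42.3 to 124) and control libraries (38.8 to 185), while SPRY4, IL17RD and DUSP4 overlap with them.

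The neighbours of both ligands that were higher in the E7 clone were then listed, a choice made after their values were seen. On chromosome 11, 6 of the 10 tested genes nearest to FGF19 (5 on each side) were past the threshold and higher in the E7 clone, and none was lower, where 7.58% of all genes were called higher. ANO1, a calcium-activated chloride channel and the next tested gene, had 441 to 494 CPM in the E7 libraries and 56.0 to 102 CPM in the 12 controls. Its log2 change was 2.61 (SE 0.24), beside 2.26 for FGF19. The others were MYEOV (1.03), CCND1 (0.60), the actin regulator CTTN (0.55), the death receptor adaptor FADD (0.52) and the scaffold protein PPFIA1 (0.41). MYEOV and CCND1 thus stand both beside FGF19 and in the list of ERK targets.

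Of the 10 tested genes nearest to FGF9 on chromosome 13, 3 were past the threshold and higher (ZDHHC20 0.61, SPATA13 0.55 and PARP4 0.52). MIPEP alone was lower (-1.10). Over all genes 7.58% were called higher and 6.32% lower. The median log2 change of the 10 was 0.02, beside 0.47 for those around FGF19. MICU2, a mitochondrial calcium uptake protein, lies next to FGF9 and did not pass, at 0.21 (SE 0.09). The order of genes is that of the GRCh38.p14 annotation, not of the hg19 build of the counts.

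**Figure D4:**
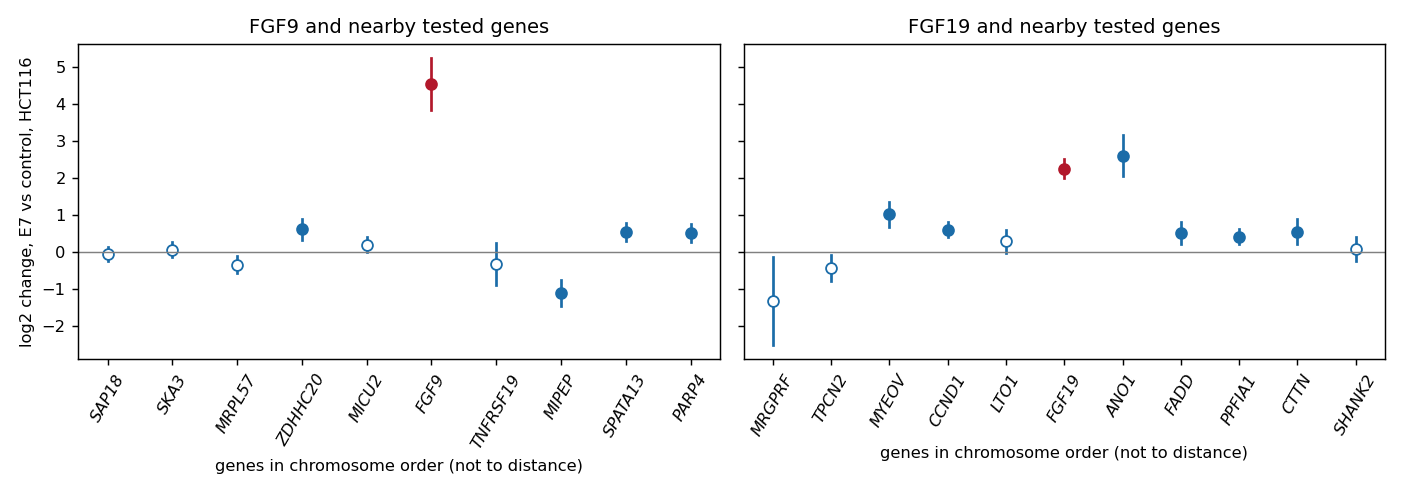
Log2 change in the E7 clone of HCT116, with 95% interval, of FGF9 and FGF19 (red) and nearby tested genes on each side, filled where past the threshold. ANO1 (2.61) stands beside FGF19 (2.26), whereas no plotted neighbour of FGF9 (4.54) exceeds 0.61. Both ligands were chosen after their values were seen, so the filling is a description.

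Without any deletion, the lines differed in ligands and receptors. HEK293 control libraries were compared with the 4 HCT116 control clones of days A to C over the genes listed for both. As day and line go together here, they cannot be told apart. Of the 6 members listed in both, 5 passed, 2 higher and 3 lower in HEK293. Of the 11805 genes tested, 31.1% were called higher and 26.0% lower. FGF9 was higher by 3.44 (SE 0.32, edgeR adjusted p = 0.000131) and FGFR2 by 0.64 (SE 0.10, edgeR adjusted p = 0.00161). FGFR4 was lower, at 12.9 and 19.9 CPM in HEK293 and 76.1 to 90.7 CPM in HCT116, with a log2 change of -2.57 (SE 0.21, edgeR adjusted p = 7.58e-05).

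FGFR1 was also lower in HEK293 (log2 change -0.73, SE 0.11, edgeR adjusted p = 0.00143), as was FGFR3 (-0.62, SE 0.18, edgeR adjusted p = 0.0221). The call of FGFR3 was lost without control clone 1 (adjusted p = 0.0517) or control clone 3 (adjusted p = 0.0502). Against the 2 control libraries of day D, neither FGFR1 (edgeR adjusted p = 0.0761) nor FGFR3 (0.133) passed. FGF2 had a log2 change of 0.13 (SE 0.48, edgeR adjusted p = 0.828) against days A to C and 1.81 (SE 0.33, edgeR adjusted p = 0.00595) against day D.

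Partners of the FGF system also differed between the lines, among the genes listed for HEK293. FGF13 is an intracellular FGF homologue that binds sodium channels. It had 18.9 and 29.5 CPM in the HEK293 control libraries and 0 counts in the 12 HCT116 control libraries. Against a floor of 3 counts over those 12 libraries, it was at least 1207-fold higher in HEK293. FGF13 is the 1 of 17 other ligands listed for HEK293, and it could be tested through its HEK293 level alone. Of 18 co-receptors and binding proteins, the HEK293 files list 12, and 7 of these were higher and 5 lower in HEK293, where 31.1% of all genes were called higher and 26.0% lower. The count covers genes listed for HEK293 only, among them 4 that could be tested through their HEK293 level alone. Of those 4, the proteoglycan SDC2 had 80.4 and 87.5 CPM in HEK293, the receptor-binding FLRT2 43.1 and 81.5, the matrix protein ANOS1 41.4 and 84.0 and the glypican GPC6 16.9 and 17.7 CPM, each with 0 counts in the HCT116 controls. The HEK293 files list 9 of the 12 ERK targets, and these 9 were lower in HEK293 (26.0% of all genes), among them FOSL1 (-4.14, SE 0.34), IER3 (-3.67, SE 0.20), EGR1 (-2.23, SE 0.24) and CCND1 (-2.05, SE 0.14).

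The control clones of HCT116 show the spread with no deletion. Among them 2 of 9 tested members differed with day as a term, where 7.80% of 14988 genes were called (308 genes without day C, in place of 1169). The test used the single libraries, so its p-values rest on spread between libraries of the same clones, not on the sums given next. FGF2 summed over days had 19.9, 23.8, 9.97 and 7.08 CPM in clones 1 to 4 (edgeR adjusted p = 2.09e-06). FGFBP1 had 2.46, 3.06, 12.2 and 7.56 CPM (edgeR adjusted p = 5.46e-06). Over days A to C the 2 clones high in FGF2 were thus the 2 low in FGFBP1. On day D these clones, 1 and 2, had 4.89 and 4.22 CPM of FGF2 and 4.04 and 2.70 CPM of FGFBP1. Over the 22 HCT116 libraries Pearson's r of log2(CPM + 1) between both genes was -0.372. A relation between them was not tested. FGF9 had 1.42, 2.28, 0.845 and 1.52 CPM and did not pass (edgeR adjusted p = 0.0690), while FGFR4 ranged from 80.1 to 85.9 CPM.

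FGF2 and FGFBP1 are shown by the 300 bases around their start, 250 before it and 50 after it, as RefSeq gives them on GRCh38.p14 (FGF2 at chr4:122826581-122826880 on the plus strand, FGFBP1 at chr4:15938691-15938990 on the minus strand). They are the members that differed between control clones, and CpG dinucleotides, where DNA can be methylated, are in capitals.
FGF2: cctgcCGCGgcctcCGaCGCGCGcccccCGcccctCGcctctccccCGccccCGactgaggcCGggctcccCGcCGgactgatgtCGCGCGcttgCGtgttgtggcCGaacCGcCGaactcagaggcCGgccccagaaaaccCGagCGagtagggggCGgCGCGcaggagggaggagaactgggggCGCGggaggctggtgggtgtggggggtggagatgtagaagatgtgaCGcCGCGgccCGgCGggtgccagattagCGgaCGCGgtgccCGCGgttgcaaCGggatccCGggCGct
FGFBP1: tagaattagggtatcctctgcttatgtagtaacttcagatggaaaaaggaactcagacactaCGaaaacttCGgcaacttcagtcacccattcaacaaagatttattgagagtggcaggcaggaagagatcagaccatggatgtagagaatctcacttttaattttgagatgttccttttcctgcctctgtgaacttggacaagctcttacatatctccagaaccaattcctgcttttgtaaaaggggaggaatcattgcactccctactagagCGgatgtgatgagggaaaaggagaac
The FGF2 window holds 41 CpG, and 6.69% of the 35116 promoter windows in the table hold as many or more. The FGFBP1 window holds 3, and 81.8% of windows hold as many or more, with a median of 14. Counting both strands, GGGCGG occurs 3 times in the FGF2 window and not in that of FGFBP1 (44.95% of all windows hold it), and neither holds TATAAA (11.53% of windows) or TGANTCA (7.71% of windows). Windows for FGF9 and FGF19 were not used here.

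More members differed between extraction days than between clones. With clone as a term, 6 of 9 tested members differed between days A, B and C (FGF18, FGF19, FGFBP1, FGFR1, FGFR2 and FGFR3), where 38.2% of all genes were called (5731, against 2228 without control clone 2 and 3593 without control clone 3). FGF19 averaged 29.2 ± 3.03, 17.0 ± 4.09 and 19.1 ± 1.97 CPM on days A, B and C (SD, n = 4 clones each; edgeR adjusted p = 0.000257). FGFBP1 averaged 9.35 ± 7.46, 3.50 ± 2.03 and 5.70 ± 3.94 CPM (edgeR adjusted p = 0.000282) and FGF18 2.87 ± 0.870, 1.24 ± 0.465 and 1.71 ± 0.327 CPM (edgeR adjusted p = 0.00296). FGFR2 averaged 29.8 ± 2.54, 22.4 ± 0.870 and 24.0 ± 1.55 CPM (edgeR adjusted p = 0.00769) and FGFR3 62.9 ± 12.1, 48.6 ± 4.56 and 51.3 ± 2.43 CPM (edgeR adjusted p = 0.0169). Day A was the highest for these 5. The calls of FGFR2 and FGFR3 were lost without control clone 2, and that of FGFR1 (edgeR adjusted p = 0.0485) without any one clone. FGF9, FGF2 and FGFR4 did not pass (edgeR adjusted p = 0.626, 0.0534 and 0.445).

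**Figure D5:**
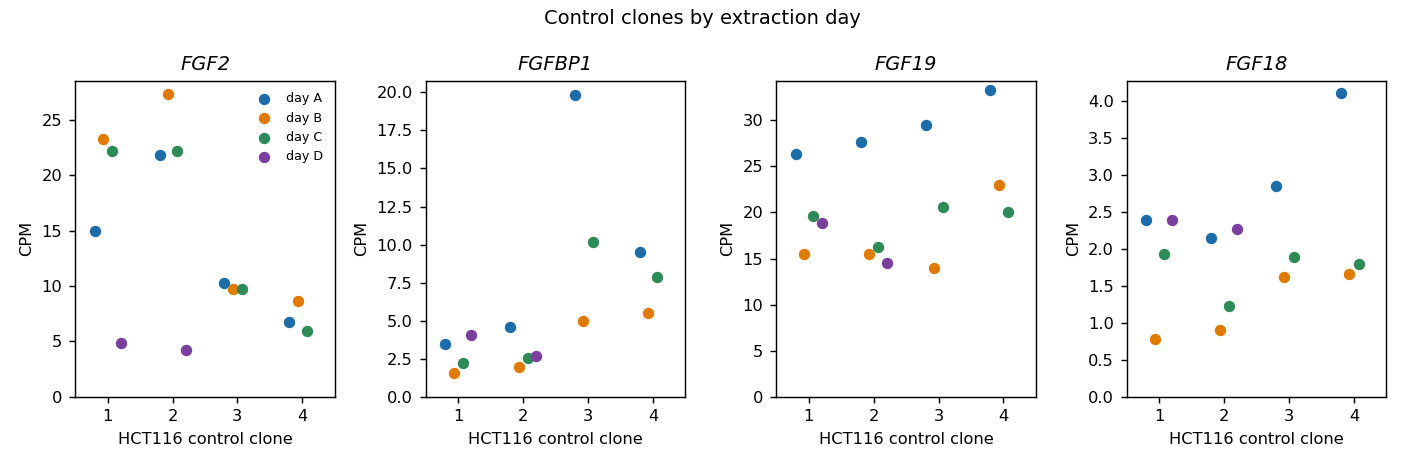
CPM of 4 members in each HCT116 control library by clone, with days as colours. FGF2 is high in clones 1 and 2 on days A to C (15.0 to 27.4 CPM) and low in the same clones on day D (4.89 and 4.22 CPM), while FGF19 is highest on day A in every clone.

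The genes whose levels ran most closely with each member were named by Pearson's r of log2(CPM + 1) over the 22 HCT116 libraries, which share clones and days and differ in depth, as a description. FGF9 ran with PARD3 (r = 0.949), UBASH3B (0.937) and MAML2 (0.937), and FGF19 with SMURF2 (0.963), KCNN4 (0.950) and ARHGAP24 (0.949). Without the 3 E7 libraries these values were 0.726, 0.672 and 0.655 for FGF9 and 0.841, 0.737 and 0.731 for FGF19. FGF9 and FGF19 had an r of 0.83 with each other, and 0.161 without the E7 libraries.

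Among the other members, FGFR4 was the one whose closest gene lost most in r without the E7 libraries. FGF2 ran with LNCAROD (0.889, and 0.887 without E7), FGFBP1 with CELSR1 (0.897 and 0.903), FGFR2 with CDK19 (0.938 and 0.926) and the adaptor GAB1 (0.936 and 0.939), FGF18 with DHRS1 (0.868 and 0.883) and FGFR1 with TEAD2 (0.812 and 0.822). FGFR3 ran with SUSD4 (0.921 and 0.867) and FGFR4 with ZNF330 (0.911, and 0.678 without E7).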

How the data were processed

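RNA was measured in 26 of the 32 samples of the series. The 6 chromatin samples were not analysed here. The authors deposited raw read counts per gene, whole numbers in 1 file per library. The submitters' processing notes name the build hg19 and, in no stated order, bedtools, BWA 0.6.2, HTSeq 0.6.1, Partek 3, TopHat2, CASAVA and bcl2fastq. In HCT116, 5 summary lines were left out of totals and tests (no feature 6.34% to 14.3%, ambiguous 2.86% to 3.60% and not unique 12.3% to 24.8% of counted reads). Symbols came from NCBI tables of GRCh38.p14, which matched 51996 of the 57820 genes of HCT116 and 11567 of the 11887 of HEK293. The HEK293 genes, chosen by an unknown rule, took up 95.6% to 97.0% of each HCT116 library's gene counts.

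The main test was edgeR 4.0.16 under R 4.3.3, its quasi-likelihood F test (2-sided) on TMM-scaled counts of genes kept by filterByExpr at min.count 10. P-values were adjusted by Benjamini-Hochberg over the genes of each comparison, and a gene is said to rise or fall only at an adjusted p below 0.05. The standard error is the log2 change over the root of F, and intervals are 95%. Days A to C were summed per clone, and only days A and B for 18qNE. The tests among control clones and among days used the control libraries of days A to C unsummed. A single E7 clone gives no spread of its own, which was taken from the control clones. P-values of the deletion and line comparisons therefore rest on clone-to-clone spread, which in HEK293 E7 may be spread within 1 clone. Those of the tests among control clones and among days rest on the spread between libraries that remains after clone and day terms. The closest libraries of a group, control clones 1 and 2 on day B, still differed beyond counting noise (chi-square per degree of freedom 2.37). None were merged as duplicates. The 2 HEK293 control libraries lay furthest apart of all pairs within a group, at 210, beside 19.0 for the 2 HEK293 E7 libraries. This measure grows with depth, which was highest in HEK293. All HEK293 comparisons rest on these 2 unlike control libraries.

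DESeq2 1.42.0, other scalings and filters, and fits without single clones, days or libraries were run as alternatives. The fits were also run on simulated data with known fold changes. The simulated counts had the same spread setting for every gene and no differences between clones or days beyond those changes. That run therefore cannot show how the fits do at the clone spread seen here. Named genes were the members, up to 4 genes of each pathway list with the largest change among those past the threshold, and per member the 3 genes with the highest r among genes of at least 1 CPM. Members and lists were chosen with earlier results of these data known. Some genes of the lists and neighbourhoods are not reported here by name.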

Additional observations from a re-analysis of the deposited data

Results flagged for a closer look

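FGF9 stood out by the difference of its E7 effect between the lines, from 1 model over both lines with an interaction term. The set was chosen with the HCT116 change of FGF9 known, and that change enters the difference, so the value is a description and no test. The E7 effect in HEK293 minus that in HCT116 was -5.01 on the log2 scale. FGF9 had 14.2 and 14.8 CPM in HEK293 E7 libraries and 17.5 and 21.3 CPM in HEK293 controls, and 32.7 to 38.1 CPM in the HCT116 E7 clone and 0.594 to 2.91 CPM in HCT116 controls. With 1 library left out at a time it ran from -5.28 to -4.82. Starting levels, day, depth and clones differ with the line, and their part in the difference was not tested. No member's control clones held 1 clone far from the other 3.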

How the results depend on the processing

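In the E7 comparison of HCT116, known when the members were chosen and so given as a description, FGF9 and FGF19 were higher and FGFR4 lower past the threshold under DESeq2, DESeq2 size factors, no count filter, no day A, libraries as replicates and each fit with 1 clone or day left out. With the 18qNE clones as the reference, 79 genes and 1 member (FGF9) were called. Libraries as replicates with day as a block called 5178 genes and 5 members (FGFR2 and FGFR3 added). That fit counts repeated libraries of the same clones as replicates, the 3 E7 libraries all being of 1 clone. Its p-values therefore do not measure clone-to-clone spread, and its added calls are no evidence of a difference. Leaving out 1 clone or day gave 1477 to 3087 genes and 3 to 4 members. For 18qNE, DESeq2 called 13 genes and no filter 16, with 1 member (FGF9) in each, and leaving out 1 clone 0 to 1 genes and 0 members. For 18qE, DESeq2 called 19 genes and 1 member (FGF2), and leaving out 1 clone 0 to 132 genes and 0 to 2 members. For E7 in HEK293, DESeq2 called 463 genes and 1 member (FGFR3), both E7 libraries summed 71 genes, and leaving out 1 library 74 to 6210 genes and 0 to 2 members. The difference between lines gave 1175 genes in DESeq2, and 35 to 4701 genes and 1 to 2 members with 1 library, clone or day left out. HEK293 against the HCT116 controls of day D gave 3984 genes, and with 1 left out of the main comparison 5640 to 8641 genes and 4 to 5 members. Control clones gave 1959 genes with no filter and 308 to 1694 without 1 day (2 members each time), and days 2228 to 6465 genes and 3 to 5 members without 1 clone. The cause of these shifts was not tested.

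Direction turned for members that had not passed. With 1 replicate left out, the log2 change ran from -1.04 to 0.046 for FGFBP1 in E7 of HCT116. In 18qNE it ran from -0.39 to 0.066 for FGF18, -0.91 to 0.16 for FGFBP1, -0.053 to 0.18 for FGFR2, -0.11 to 0.30 for FGFR3 and -0.18 to 0.019 for FGFR4. In 18qE it ran from -0.017 to 1.13 for FGF19, -0.68 to 1.13 for FGF9, -1.26 to 0.10 for FGFBP1, -0.056 to 0.35 for FGFR1 and -0.056 to 0.31 for FGFR2. In HEK293 E7 it ran from -0.24 to 0.35 for FGF2 and -0.39 to 0.32 for FGFR4, for FGF2 between the control lines from -0.19 to 0.44, and for FGFR2 in the difference between lines from -0.20 to 0.012. Over all alternatives for single members, 552 values kept direction and side of the threshold, 23 newly passed, 16 no longer passed and 21 turned.

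Shared clone or library numbers in the labels gave a replicate block. Same-numbered samples deviated together with r = 0.086 in 18qE, 0.363 in HEK293 (2 pairs each) and -0.214, -0.179 and 0.097 in 18qNE. With 2 libraries per group, samples of different numbers give the same value with the sign turned. The check therefore cannot decide whether the numbers pair the samples in 18qE and HEK293. In 18qNE the highest r, 0.299, was between samples of different numbers. The block called 0 genes in 18qNE, with FGFR2 at -0.0033, 0 in 18qE, and 670 genes with 1 member (FGFR3, -1.30, adjusted p = 0.00152) in HEK293. Depth limits FGF18, FGF20 and FGFBP1 most, at few counts per library.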
